A study of Homo sapiens with 28 samples.

Results

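The human Mediator complex was examined through the 33 genes that encode its subunits, taken as the rows of the deposited count table that carry one of these 33 gene symbols. Each symbol was found in exactly 1 of the 61815 human gene rows. The list holds 7 genes of the kinase module (CDK8, CDK19, CCNC, MED12, MED12L, MED13 and MED13L), 7 of the head, 9 of the middle and 9 of the tail, and the scaffold gene MED14. RNA came from LNCaP, a human prostate cancer cell line that responds to androgen, wild type per the labels, which had been kept for 72 h in charcoal-stripped serum (depleted of steroids) before treatment. In the first experiment the cells received vehicle (0.1% DMSO), Senexin B at 1 µM, the synthetic androgen R1881 at 0.1 nM, or both agents for 24 h (n = 3 libraries per group). In the second they received the same vehicle, SNX631 at 500 nM, R1881 at 1 nM, or both agents for 72 h (n = 4 libraries per group). The labels give DMSO for the vehicle groups only. Senexin B and SNX631 inhibit CDK8 and CDK19. The experiments differ in time, R1881 dose and inhibitor, and the parts of these in any difference between the experiments cannot be told apart.

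Mediator is a large assembly that carries signals from DNA-bound transcription factors to RNA polymerase II. The head and middle contact the polymerase, the tail is a main landing site for activators, and MED14 holds the modules together. The kinase module binds reversibly, and each copy holds CDK8 or CDK19, their partner cyclin C (from CCNC), MED12 or MED12L, which activates the kinase, and MED13 or MED13L, which links the module to the rest of Mediator. MED1 is a known contact of nuclear receptors.

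Library totals ranged from 9846595 to 33809419 counts, and the next total below the highest, which was that of replicate 3 of the 24 h vehicle group, was 15248512. All 33 members passed the filter on low counts in both experiments. The androgen-induced gene KLK3 (prostate-specific antigen) was at 1.44 ± 0.292 CPM (counts relative to the TMM-scaled library total, mean ± SD, n = 3) in vehicle and 110.4 ± 4.18 CPM with R1881 at 24 h, and at 1.44 ± 0.171 and 138 ± 7.59 CPM at 72 h (n = 4). The LNCaP markers FOLH1, HOXB13, STEAP2, KRT8 and KRT18 were at 278 CPM or more in every library. Of 14 markers of basal, fibroblast, blood and endothelial cells, KRT5 and CD3E had 0 counts, COL1A1 lay between 7.36 and 31.4 CPM, COL3A1 between 0.878 and 12.9 CPM, VWF and CD68 reached 4.56 and 1.38 CPM, and the others stayed at or under 0.992 CPM. In RNA from whole cultures, fewer cells of a kind and less RNA per cell cannot be told apart.

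CDK8 and CDK19 encode paralogous kinases whose transcripts moved in opposite directions with R1881, so the bases before the start of each gene are shown. They are from RefSeq on GRCh38.p14, 5′ to 3′ on the strand of the gene, and end where the GENCODE 29 gene begins. Capitals mark a GC box (GGGCGG) or a CCAAT box (CCAAT), read on both strands.
CDK8, chr13:26253879-26254103, plus strand: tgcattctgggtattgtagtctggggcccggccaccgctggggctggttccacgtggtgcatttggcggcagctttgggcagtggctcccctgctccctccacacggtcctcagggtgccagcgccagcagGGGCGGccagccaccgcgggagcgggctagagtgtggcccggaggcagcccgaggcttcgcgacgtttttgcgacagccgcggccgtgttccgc
CDK19, chr6:110815959-110816105, minus strand: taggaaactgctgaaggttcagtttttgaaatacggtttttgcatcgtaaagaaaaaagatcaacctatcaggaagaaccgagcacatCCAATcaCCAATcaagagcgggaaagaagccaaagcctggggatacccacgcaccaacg
The 225 bases of CDK8 were 69.8% G or C and held 1 GC box and 0 CCAAT boxes, and the 147 bases of CDK19 were 44.9% G or C and held 0 GC boxes and 2 CCAAT boxes. The runs are the first 225 and 147 of the 250 bases before the RefSeq start furthest upstream. They therefore cover unlike stretches, and their contents are not compared. The windows at the 3 RefSeq starts of CDK19 reach beyond its run, and a GC box lies in 1 or more of them. Neither run held AGAACA, the hexamer of the androgen response element, on either strand. Promoter windows (250 bases before to 50 after a start) were at hand for 25 of the 33 members and 27305 genes in all. The full androgen response element is AGAACA, 3 bases and its reverse complement. It was in the windows of 0 members and of 1 gene, too rare to tell the members from other genes. The hexamer alone was in those of 4 of the 25 members (16.0%), CCNC, MED4, MED16 and MED24, and of 17.5% of genes. A GC box was in those of 16 members (64.0%), CDK8 and CDK19 among them, and 48.3% of genes, and a CCAAT box in those of 10 members (40.0%) and 39.7% of genes. The CDK8 gene (ENSG00000132964.13) lies at chr13:26254104-26405238 and the CDK19 gene (ENSG00000155111.15) at chr6:110609978-110815958 on GRCh38.

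Per kb of exon, CDK19 was the most abundant member in vehicle-treated cells at 24 h. Its level was 40.1 ± 0.527 CPM per kb (mean ± SD, n = 3), ahead of MED29 at 32.5 ± 1.54, MED16 at 24.1 ± 0.417 and MED1 at 19.5 ± 0.345 CPM per kb. CDK8 stood at 14 ± 0.830, MED12 at 13.5 ± 0.567 and MED13 at 12.8 ± 0.269 CPM per kb, and CDK8 and MED12 differed by less than their SD. The cyclin gene CCNC was at 9.52 ± 0.381 CPM per kb. The paralogs MED13L (2.05 ± 0.0472 CPM per kb) and MED12L (0.460 ± 0.0795 CPM per kb) were far below MED13 and MED12, and MED12L was the lowest of the 33. MED17 (1.49 ± 0.0521 CPM per kb) was the lowest member outside the kinase module. Lengths are the union of all annotated exons, so a gene with long unused exons reads low on this scale.

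**Figure D1:**
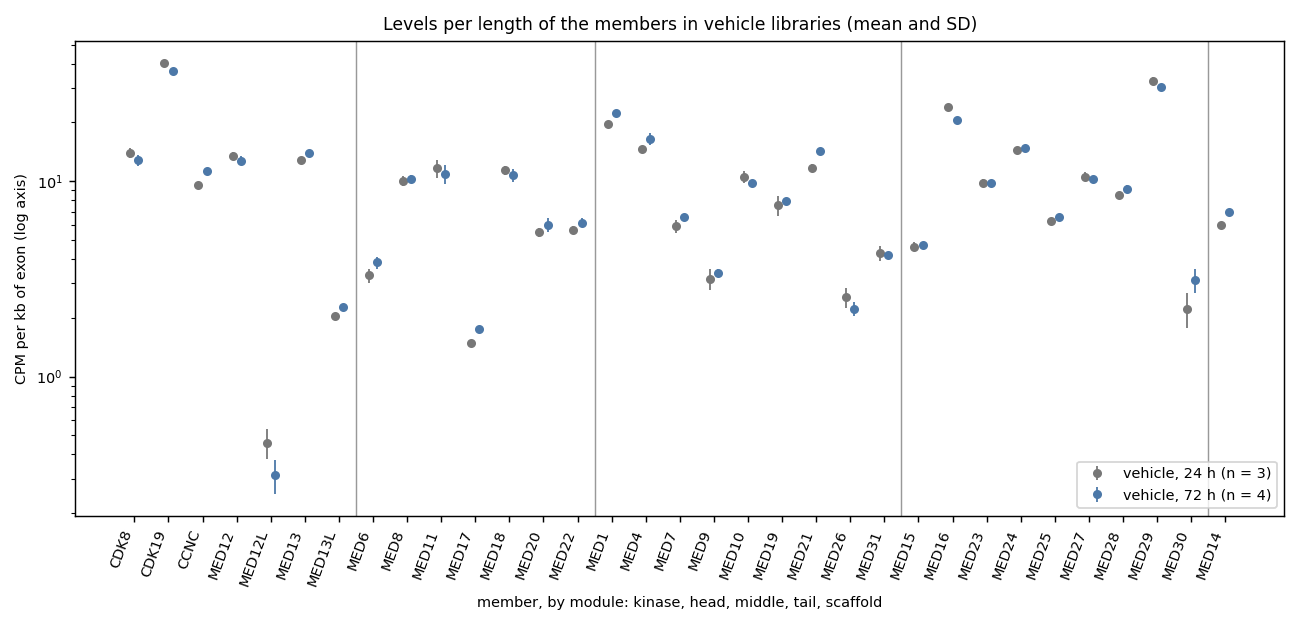
Level of each of the 33 members in the vehicle groups, in CPM per kb of exon, with members arranged by module (points, mean; bars, SD; n = 3 at 24 h and 4 at 72 h). At 24 h CDK19 is the highest at 40.1 CPM per kb and MED12L the lowest at 0.460 CPM per kb, and CPM are scaled within each experiment.

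The first comparison was R1881 against vehicle without inhibitor, and asked how androgen changed Mediator transcripts. At 24 h, 6 of the 7 kinase module genes passed an FDR of 0.01, with CDK19, CCNC and MED12L higher and CDK8, MED12 and MED13 lower, and 7 of the 26 other members passed (5 higher, 2 lower). Over all 33 members, 8 were higher and 5 lower, beside 26.3% and 22.1% of the 15948 genes tested. At 72 h, 5 of the 7 kinase module genes passed (2 higher, 3 lower) and 9 of the 26 others (6 higher, 3 lower). In all, 8 members rose and 6 fell, beside 27.6% and 24.6% of 16074 genes. When each library was scaled by its total alone, the 24 h split became 4 higher against 9 lower and the 72 h split 4 against 10. Changes past a fold of 1.5 as well were those of CDK8, MED12L and MED30 at 24 h and of CDK8 and MED12L at 72 h, beside 19% and 19.8% of genes. The median absolute log2 fold change was 0.42 for the kinase module, 0.13 for the other members and 0.26 for all genes at 24 h, and 0.36, 0.11 and 0.26 at 72 h. The test throughout was edgeR's quasi-likelihood test with Benjamini-Hochberg adjustment over all genes tested. Its p values measure the spread between these libraries only. Beyond counting noise that spread was small, with a common coefficient of variation of 2.72% at 24 h and 2.38% at 72 h. Small changes can therefore pass.

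CDK8 had the largest fall of the 33 members. The vehicle libraries held 51.8, 46.2 and 50.5 CPM at 24 h and the R1881 libraries 22.9, 22.7 and 25.4 CPM. At 72 h, vehicle libraries held 47.7, 47.4, 44.0 and 41.8 CPM and R1881 libraries 22.8, 24.5, 23.4 and 21.1 CPM. Every R1881 library was below every vehicle library of its experiment. The log2 fold change was -1.07 ± 0.0686 at 24 h (± SE, edgeR FDR 2.62e-15) and -0.97 ± 0.0642 at 72 h (edgeR FDR 1.83e-16).

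CDK19, its paralog, moved the other way by a smaller factor. Vehicle libraries held 301, 296 and 304 CPM at 24 h and R1881 libraries 418, 403 and 422 CPM. At 72 h, vehicle libraries lay between 271 and 276 CPM and R1881 libraries between 335 and 363 CPM. The groups did not overlap in either experiment. The log2 fold change was 0.46 ± 0.0319 at 24 h (± SE, edgeR FDR 3.79e-14) and 0.36 ± 0.0269 at 72 h (edgeR FDR 1.72e-14).

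The ratio of CDK19 to CDK8 counts needs no scaling between libraries. It was 6.07 ± 0.304 in vehicle and 17.6 ± 0.864 with R1881 at 24 h (mean ± SD, n = 3), and 6.07 ± 0.363 and 15.3 ± 1.29 at 72 h (n = 4). Per length these ratios were 2.87 ± 0.144, 8.29 ± 0.408, 2.87 ± 0.171 and 7.25 ± 0.607. The lowest ratio with R1881 was 16.6 and the highest in vehicle 6.41 at 24 h, and at 72 h they were 13.7 and 6.55. The ratio was 2.89-fold higher with R1881 at 24 h (exact two-sided permutation p = 0.100, adjusted p = 0.133 over 8 comparisons of the ratio), where 3 libraries against 3 cannot go below p = 0.1. At 72 h it was 2.52-fold higher (exact two-sided permutation p = 0.0286, the smallest that 4 against 4 can give, adjusted p = 0.0762). With these group sizes no comparison of the ratio could pass 0.05 after adjustment over the 8. The adjusted values therefore do not decide whether the ratio changed.

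**Figure D2:**
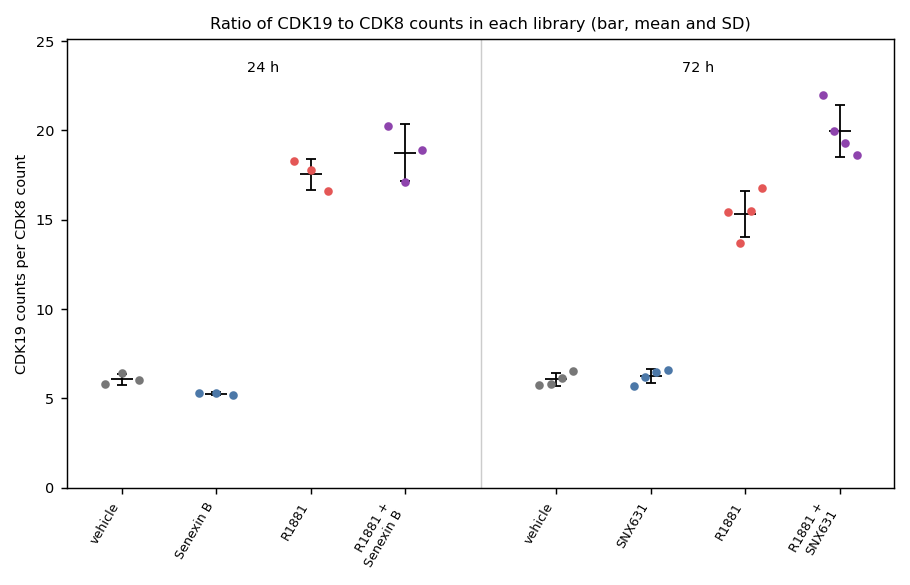
CDK19 counts per CDK8 count in each of the 28 libraries, by group (points, libraries; bars, mean and SD). All libraries without R1881 sit between 5.18 and 6.57, and all libraries with R1881 between 13.7 and 22.0.

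MED12L, the paralog of MED12, was higher with R1881. It was at 6.95, 5.36 and 5.09 CPM in vehicle and at 13.7, 9.53 and 11.8 CPM with R1881 at 24 h. At 72 h it was at 3.22, 5.04, 3.69 and 3.82 CPM in vehicle and at 8.16, 5.14, 7.49 and 6.32 CPM with R1881. Every R1881 library was above every vehicle library of its experiment, although at 72 h the nearest were at 5.14 and 5.04 CPM. The log2 fold changes were 1.07 ± 0.130 and 0.75 ± 0.154 (± SE, edgeR FDR 1.65e-08 and 4.81e-05). MED12L rested on 37 to 234 counts per library, and some of its exon bases are also exon of IGSF10 on the other strand, which had 0 counts in every library.

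R1881 lowered MED12 and MED13 at both times. MED13 was at 166, 159 and 163 CPM in vehicle and 126, 111 and 129 CPM with R1881 at 24 h, and between 173 and 187 CPM and between 122 and 136 CPM at 72 h. MED12 was at 103, 95.5 and 103 CPM in vehicle and 85.1, 77.7 and 87.4 CPM with R1881 at 24 h, and at 99.6, 87.9, 93.8 and 97.7 CPM and 67.5, 84.5, 83.9 and 85.7 CPM at 72 h. For both genes the groups did not overlap. The log2 fold changes of MED13 were -0.42 ± 0.0437 and -0.44 ± 0.0399 (± SE, edgeR FDR 8.25e-10 and 3.61e-12), and those of MED12 were -0.27 ± 0.0442 and -0.23 ± 0.0574 (edgeR FDR 3.52e-06 and 0.000746). The second MED12 change did not pass with DESeq2 (adjusted p = 0.0104).

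CCNC and MED13L had the smallest androgen changes of the module. CCNC was at 57.3, 54.4 and 53.0 CPM in vehicle and 62.7, 59.8 and 62.3 CPM with R1881 at 24 h, with no overlap (0.18 ± 0.0480, log2 ± SE, edgeR FDR 0.00186). It did not pass with libraries scaled by their totals only (0.10, adjusted p = 0.0707), with DESeq2 (adjusted p = 0.0114) or when vehicle replicate 3 was left out (adjusted p = 0.0334). At 72 h its groups overlapped (0.066 ± 0.0424, edgeR FDR 0.179), and with totals only the sign turned, to -0.037. Scaling by totals moved the median log2 fold change of all genes at 72 h from -0.014 to -0.12. MED13L overlapped between groups at 24 h, at 74.6, 77.9 and 77.4 CPM in vehicle and 83.8, 65.3 and 78.3 CPM with R1881 (-0.021 ± 0.0569, edgeR FDR 0.767). At 72 h its R1881 libraries lay between 74.4 and 82.3 CPM, below the vehicle range of 83.0 to 86.2 CPM. That change of -0.12 ± 0.0471 did not pass (edgeR FDR 0.0298), but did with totals only (-0.22, adjusted p = 0.000112).

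**Figure D3:**
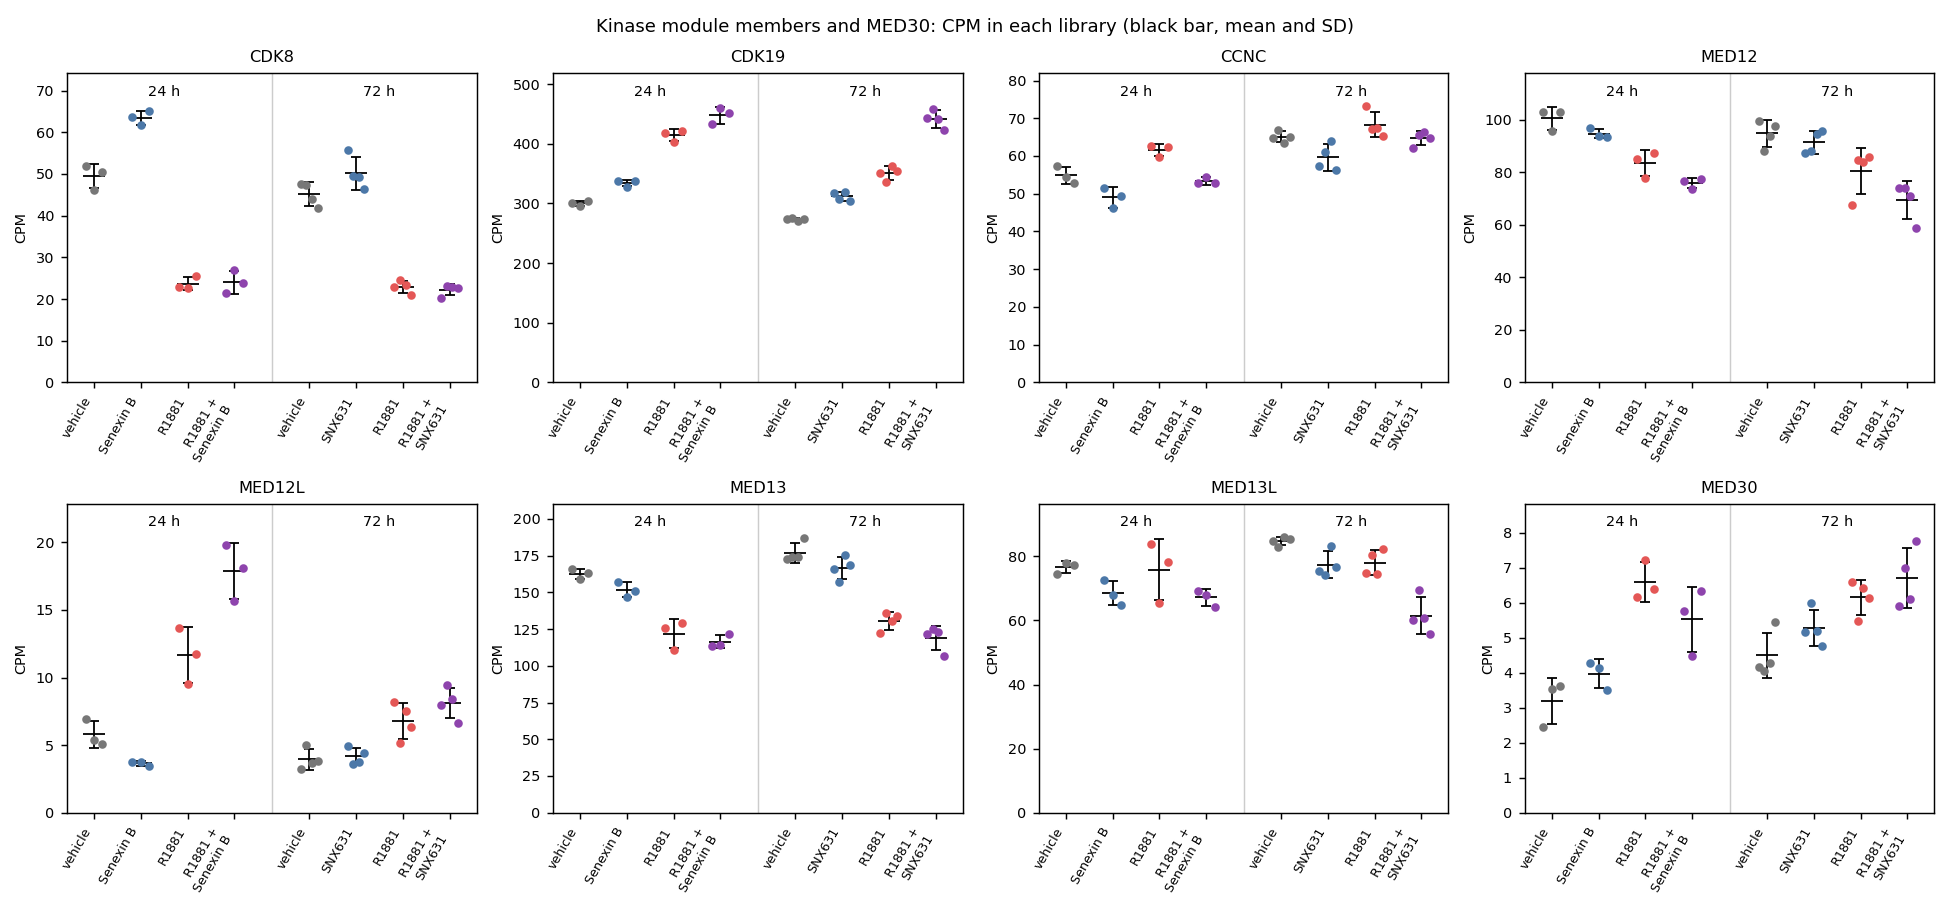
CPM of the 7 kinase module genes and MED30 in each library, 1 panel per gene, by group (points, libraries; bars, mean and SD). CDK8 sits between 20.2 and 26.8 CPM in all libraries with R1881, and MED12L is highest, at 15.7 to 19.8 CPM, with R1881 and Senexin B at 24 h.

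Of the 26 members outside the kinase module, MED30 had the largest change with R1881. It was at 2.44, 3.53 and 3.61 CPM in vehicle and 6.15, 7.23 and 6.40 CPM with R1881 at 24 h. At 72 h it was at 4.18, 4.05, 4.29 and 5.46 CPM in vehicle and 6.59, 5.47, 6.42 and 6.15 CPM with R1881. The groups did not overlap, although at 72 h the nearest libraries were at 5.46 and 5.47 CPM. The log2 fold changes were 0.97 ± 0.152 and 0.44 ± 0.130 (± SE, edgeR FDR 1.83e-06 and 0.00316), from 26 to 127 counts per library. The 72 h change did not pass with DESeq2 (adjusted p = 0.0112), with totals only (0.34, adjusted p = 0.0198) or when R1881 replicate 1 or 3, or vehicle replicate 1 or 2 was left out (adjusted p from 0.0109 to 0.0159).

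In the head, 1 of 7 subunits passed at 24 h and 1 at 72 h, beside 48.4% and 52.2% of all genes in either direction. MED17, a core head subunit, was higher at 24 h (0.25 ± 0.0627, log2 ± SE, edgeR FDR 0.00103), though not with totals only (0.17, adjusted p = 0.0191) or when R1881 replicate 1 was left out (adjusted p = 0.0159). MED8 was higher at 72 h, at 31.9 to 34.0 CPM with R1881 and 26.7 to 29.5 CPM in vehicle (0.25 ± 0.0551, edgeR FDR 0.000134), though not with totals only (0.15, adjusted p = 0.0156). In the middle, 2 of 9 passed at 24 h and 2 at 72 h, beside the same shares of all genes. MED10, a small middle subunit, passed in both (0.34 ± 0.0751 and 0.32 ± 0.0688, edgeR FDR 0.000283 and 0.000136), MED9 at 24 h (0.24 ± 0.0745, edgeR FDR 0.00630) and MED31 at 72 h (0.42 ± 0.0932, edgeR FDR 0.000169). The MED9 change did not pass with totals only (0.16, adjusted p = 0.0563), with DESeq2 (adjusted p = 0.0256), with no filter on low counts (adjusted p = 0.0117), in a fit of only the groups compared (adjusted p = 0.0107) or when R1881 replicate 1, 2 or 3, or vehicle replicate 1 or 3 was left out (adjusted p from 0.0122 to 0.0339). Of the MED31 exon bases, 58.3% are also exon of TXNDC17 on the other strand, which was at 58.2 to 67.7 CPM in the group means, and without strand in the counting their reads cannot be told apart. MED1 gave log2 fold changes of -0.084 to -0.032 in the 8 comparisons of R1881 or inhibitor, none of which passed.

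In the tail, 3 of 9 subunits passed at 24 h (MED24 and MED30 higher, MED29 lower) and 5 at 72 h (MED16, MED24 and MED30 higher, MED28 and MED29 lower), beside 48.4% and 52.2% of all genes. MED16 gave 0.13 ± 0.0371 at 72 h (log2 ± SE, edgeR FDR 0.00252), which did not pass with totals only (0.029, adjusted p = 0.515) or when vehicle replicate 3 or 4 was left out (adjusted p from 0.0135 to 0.0171). MED29 was at 119, 131 and 125 CPM in vehicle and 101, 105 and 97.6 CPM with R1881 at 24 h (-0.31 ± 0.0407, log2 ± SE, edgeR FDR 1.01e-07). At 72 h its change was -0.19 ± 0.0338 (edgeR FDR 1.04e-05) and that of MED28 -0.19 ± 0.0379 (edgeR FDR 4.03e-05). MED28 shares 32.1% of its exon bases with FAM184B on the other strand, which was at 0.882 to 2.39 CPM. MED24, known as a coactivator subunit for nuclear receptors, gave 0.13 ± 0.0398 at 24 h (edgeR FDR 0.00743), which did not pass with totals only (0.048, adjusted p = 0.298), with DESeq2 (adjusted p = 0.0204) or when R1881 replicate 1, 2 or 3, or vehicle replicate 1 or 2 was left out (adjusted p from 0.0103 to 0.0291), and 0.13 ± 0.0313 at 72 h (edgeR FDR 0.000375), which did not pass with totals only (0.030, adjusted p = 0.405).

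The scaffold gene MED14 was at 66.1 to 68.8 CPM in vehicle and 52.4 to 55.9 CPM with R1881 at 72 h (-0.31 ± 0.0399, log2 ± SE, edgeR FDR 1.32e-08). At 24 h its vehicle libraries held 59.8, 56.1 and 56.9 CPM and its R1881 libraries 55.8, 41.0 and 53.3 CPM, so that replicate 2 stood below the other R1881 libraries. That change was -0.20 ± 0.0637 (edgeR FDR 0.00807), and with R1881 replicate 2 left out it was -0.063 (adjusted p = 0.313). It did not pass in 9 of 12 fits that each left out 1 library, or with DESeq2 (adjusted p = 0.0157).

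**Figure D4:**
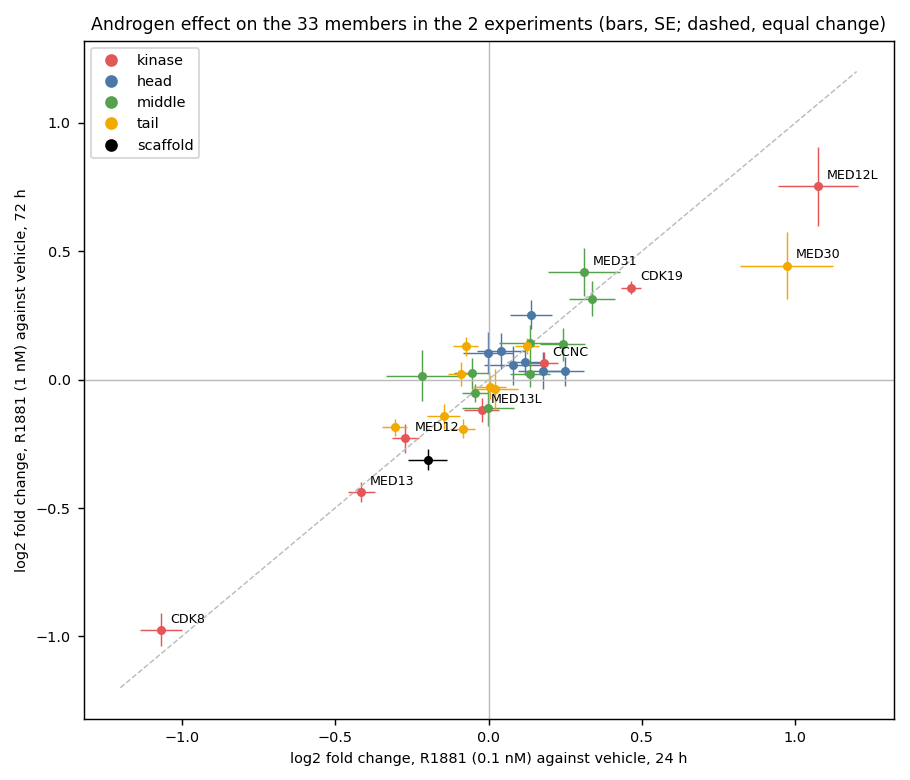
Log2 fold change of the 33 members with R1881 against vehicle at 24 h (x axis) and at 72 h (y axis), coloured by module (bars, SE). CDK8 lies at -1.07 and -0.97, MED12L at 1.07 and 0.75, and MED30 at 0.97 and 0.44, while most core subunits lie near 0 on both axes.

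The androgen effects at 24 h and 72 h share no library. In both, 5 members were higher (CDK19, MED12L, MED10, MED24 and MED30) and 5 lower (CDK8, MED12, MED13, MED29 and MED14), and 0 passed in opposite directions. Of the 15681 genes tested in both experiments, 22.3% were higher in both, 17.1% lower in both and 0.198% opposite. The difference between the experiments was tested in a fit of all 28 libraries, in which 1 member passed, MED16, beside 7.54% of 16672 genes. Its androgen effect was higher at 72 h by 0.21 ± 0.0549 (log2 ± SE, edgeR FDR 0.00627), with 103, 99.6 and 102 CPM in vehicle and 93.7, 102 and 93.7 CPM with R1881 at 24 h, and 84.4 to 90.2 and 94.8 to 96.0 CPM at 72 h. That difference did not pass with totals only (adjusted p = 0.0184) or in 10 of 28 fits that each left out 1 library. For CDK8 the difference was 0.10 ± 0.0978 and for MED30 -0.52 ± 0.197 (edgeR FDR 0.603 and 0.0718).

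Among the factors that Mediator contacts, 5 of 12 RNA polymerase II subunit genes passed at 24 h (3 higher, 2 lower) and 7 at 72 h (6 higher, 1 lower), beside 48.4% and 52.2% of all genes. Of 18 general initiation factor genes, 7 passed at 24 h (4 higher, 3 lower) and 10 at 72 h (7 higher, 3 lower), beside the same shares, and 0 genes of either list changed by more than 1.5-fold. The lowest were POLR2I, a polymerase subunit (-0.43 ± 0.0480 at 24 h and -0.23 ± 0.0521 at 72 h, log2 ± SE, edgeR FDR 2.24e-09 and 0.000216), and GTF2E1, a subunit of TFIIE (-0.39 ± 0.0459 and -0.39 ± 0.0423, edgeR FDR 9.40e-09 and 3.60e-10). Of the POLR2I exon bases, 79.6% are also exon of AD001527.2, OVOL3 or TBCB on the other strand. Without strand in the counting, reads from these bases cannot be told apart. The highest were POLR2H at 24 h (0.26 ± 0.0476, edgeR FDR 1.71e-05) and POLR2G at 72 h (0.29 ± 0.0426, edgeR FDR 1.80e-07) among polymerase genes, and GTF2F2 at 24 h (0.27 ± 0.0527, edgeR FDR 4.34e-05) and GTF2A2 at 72 h (0.21 ± 0.0387, edgeR FDR 1.61e-05) among the factors.

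The next comparison was of R1881 in cells that also received an inhibitor. Within each experiment the androgen, inhibitor and interaction comparisons draw on the same 4 groups and so share libraries. Under Senexin B at 24 h, 4 members were higher and 6 lower, beside 26.3% and 21.2% of genes, and under SNX631 at 72 h 6 and 9, beside 29.8% and 27.5%. The kinase module gave 5 of 7 under Senexin B (2 higher, 3 lower) and 6 of 7 under SNX631 (2 higher, 4 lower), and the 26 others 5 and 9. CDK8 and MED12L were past the fold limit under both inhibitors, beside 18.9% and 22% of genes. In all 4 androgen comparisons CDK19, MED12L and MED24 were higher and CDK8, MED12, MED13 and MED29 lower, beside 19.5% and 13.1% of the 15681 genes tested in both experiments. MED24 passed in 0 of the 4 with totals only. Under SNX631 it gave 0.091 ± 0.0297 (log2 ± SE, edgeR FDR 0.00751), and with totals only the sign turned, to -0.017 (adjusted p = 0.623). That change also did not pass with DESeq2 (adjusted p = 0.0149), with the filter at a mean of 1 CPM (adjusted p = 0.0182), in a fit of only the groups compared (adjusted p = 0.0262) or when the R1881 and SNX631 library of replicate 1, 2 or 3, or SNX631 replicate 1 or 2 was left out (adjusted p from 0.0105 to 0.0384).

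CDK8 was at 63.8, 61.7 and 65.0 CPM with Senexin B alone and at 21.3, 26.8 and 23.9 CPM with both agents. With SNX631 alone it was at 55.7, 49.5, 49.2 and 46.3 CPM and with both agents at 20.2, 23.0, 22.9 and 22.7 CPM. No library with both agents reached any library with inhibitor alone. The log2 fold changes were -1.41 ± 0.0681 and -1.17 ± 0.0604 (± SE, edgeR FDR 1.48e-18 and 8.84e-20). CDK19 rose by 0.42 ± 0.0319 under Senexin B and by 0.50 ± 0.0259 under SNX631 on the log2 scale (edgeR FDR 3.99e-13 and 1.79e-19).

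MED12L was at 3.76, 3.73 and 3.43 CPM with Senexin B alone and 19.8, 15.7 and 18.1 CPM with both agents. This was the largest change of any member in any comparison, at 2.30 ± 0.156 on the log2 scale (± SE, edgeR FDR 1.72e-15) or 4.92-fold. Under SNX631 it was at 3.61 to 4.90 CPM alone and 6.67 to 9.43 CPM with both (0.97 ± 0.143, edgeR FDR 1.24e-07). MED12 was lower by 0.32 ± 0.0464 and MED13 by 0.38 ± 0.0451 under Senexin B, and by 0.40 ± 0.0571 and 0.48 ± 0.0395 under SNX631 (edgeR FDR 5.61e-07, 9.38e-09, 1.36e-07 and 1.44e-13). MED13L was lower under SNX631, at 55.7 to 69.6 CPM against 74.1 to 83.3 CPM (-0.33 ± 0.0480, edgeR FDR 1.59e-07), and gave -0.030 ± 0.0611 under Senexin B (edgeR FDR 0.693). CCNC passed under neither (0.12 ± 0.0522 and 0.12 ± 0.0419, edgeR FDR 0.0518 and 0.0138). Under SNX631 CCNC did pass with no filter on low counts (0.15, adjusted p = 0.00204), in 1 fit of all libraries (adjusted p = 0.00583) and when the R1881 and SNX631 library of replicate 1, or SNX631 replicate 3 was left out (adjusted p = 0.00884 and 0.00308).

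Outside the kinase module, the middle subunit MED9 rose under both inhibitors, and its libraries held 18.2, 19.1 and 20.4 CPM with Senexin B and 26.3, 25.8 and 27.3 CPM with both agents (0.47 ± 0.0768 and 0.33 ± 0.0608, log2 ± SE, edgeR FDR 4.26e-06 and 8.55e-06). MED29 and MED24, members of the tail, passed under Senexin B (-0.23 ± 0.0421 and 0.15 ± 0.0408, edgeR FDR 1.75e-05 and 0.00250), but MED24 did not with totals only (0.073, adjusted p = 0.122), with DESeq2 (adjusted p = 0.0110) or when the R1881 and Senexin B library of replicate 1, or Senexin B replicate 3 was left out (adjusted p from 0.0252 to 0.0371). MED30, also of the tail, was at 4.28, 4.15 and 3.51 CPM with Senexin B and 5.76, 4.49 and 6.32 CPM with both agents and did not pass under either inhibitor (0.49 ± 0.165 and 0.34 ± 0.118, edgeR FDR 0.0117 and 0.0109). It passed in 1 fit of all libraries (adjusted p = 0.00702 and 0.00948), under Senexin B when the R1881 and Senexin B library of replicate 2 was left out (0.61, adjusted p = 0.00348), and under SNX631 with DESeq2's size factors (adjusted p = 0.00975) and in 4 of 16 fits that each left out 1 library (adjusted p from 0.00565 to 0.00862). The tail genes MED15 and MED28 fell under both. Under SNX631 MED15 gave -0.21 ± 0.0487 and MED28 -0.29 ± 0.0363 (edgeR FDR 0.000219 and 8.32e-09). Under Senexin B MED15 gave -0.19 ± 0.0572 (edgeR FDR 0.00505), which did not pass with DESeq2 (adjusted p = 0.0127) or when the R1881 and Senexin B library of replicate 2 or 3, or Senexin B replicate 1 was left out (adjusted p from 0.0223 to 0.0406). MED28 gave -0.13 ± 0.0412 there (edgeR FDR 0.00837) and did not pass with DESeq2 (adjusted p = 0.0169) or when the R1881 and Senexin B library of replicate 1 or 3, or Senexin B replicate 1 or 3, or vehicle replicate 3 was left out (adjusted p from 0.0125 to 0.0705).

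Under SNX631 the tail gene MED23 also fell (-0.19 ± 0.0451, log2 ± SE, edgeR FDR 0.000376), and the middle genes MED10 (0.22 ± 0.0692, edgeR FDR 0.00563) and MED31 (0.27 ± 0.0898, edgeR FDR 0.00727) rose. MED10 overlapped between its groups. It did not pass with DESeq2 (adjusted p = 0.0158), with totals only (0.11, adjusted p = 0.156) or when the R1881 and SNX631 library of replicate 1, 2 or 3, or SNX631 replicate 1 or 3 was left out (adjusted p from 0.0143 to 0.0313). MED31 did not pass with DESeq2 (adjusted p = 0.0260), with totals only (0.17, adjusted p = 0.0991) or when the R1881 and SNX631 library of replicate 3 or 4, or SNX631 replicate 1, 2 or 3 was left out (adjusted p from 0.0116 to 0.0350).

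**Figure D5:**
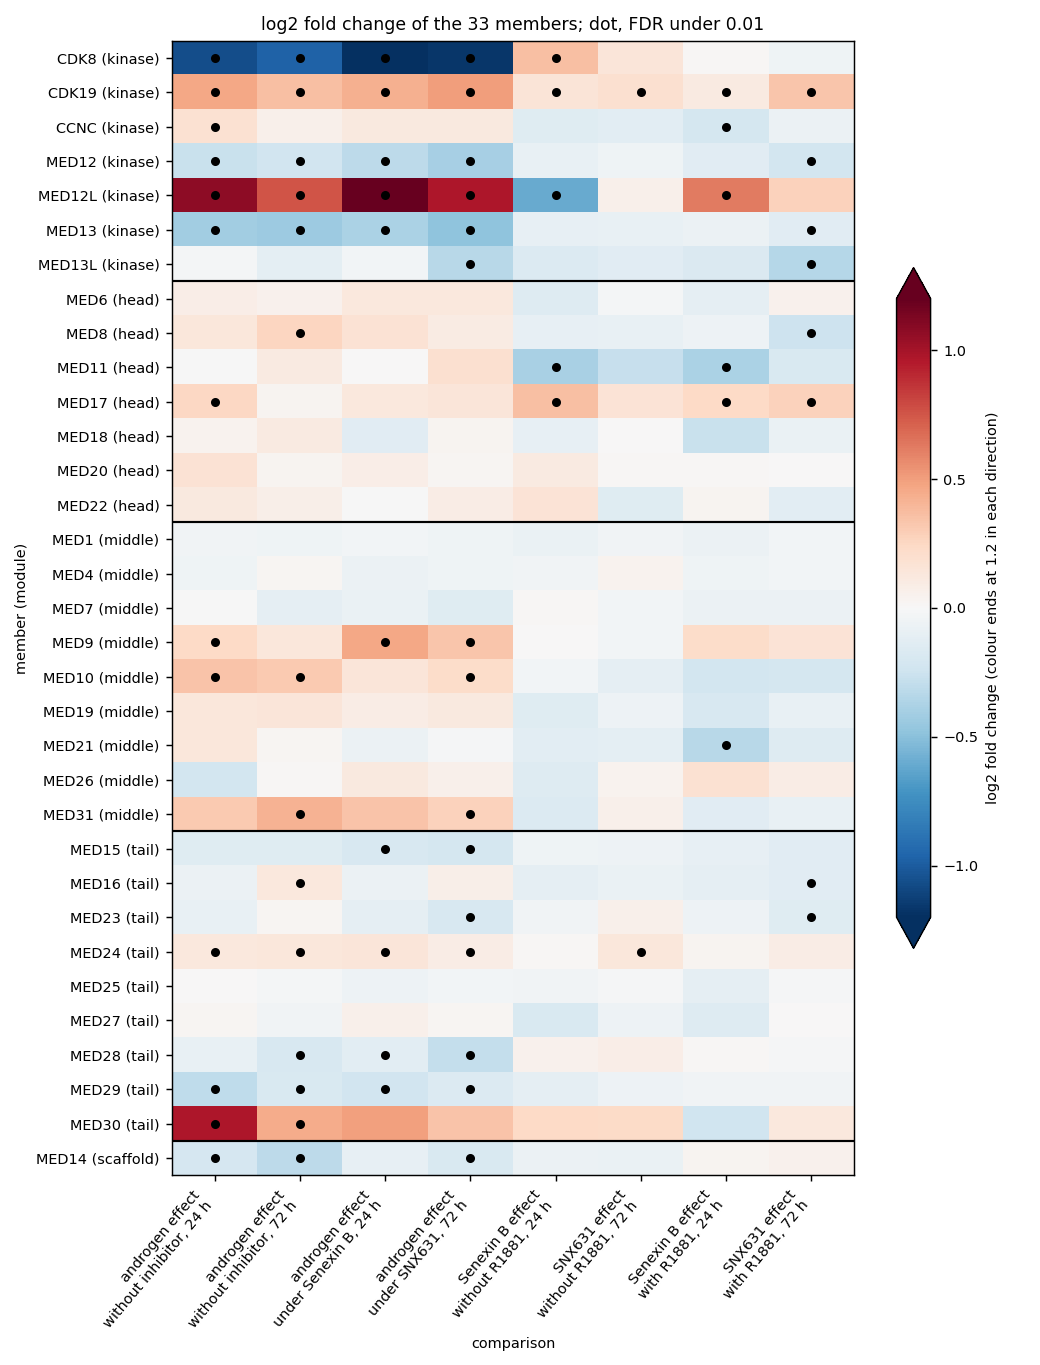
Log2 fold change of each of the 33 members, by module, in the 8 comparisons of R1881 or an inhibitor (red, higher; blue, lower; dot, FDR under 0.01). The lowest value is that of CDK8 at -1.41 and the highest that of MED12L at 2.30, both with R1881 under Senexin B, and CDK19 alone has a dot in all 8.

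The third comparison was of each inhibitor with no inhibitor, without and with R1881. Doses and times differ between Senexin B and SNX631, so their values are given side by side and not compared. Without R1881, 3 members were higher and 2 lower with Senexin B, beside 13.5% and 11.7% of genes, and 2 higher and 0 lower with SNX631, beside 14.4% and 12.5%. An unadjusted p under 0.05 was reached by 12 members with SNX631 in either direction, beside 44.6% of genes, and DESeq2 gave 0 lower. With R1881, 3 were higher and 3 lower with Senexin B, beside 12.7% and 9.99%, and 2 and 6 with SNX631, beside 17.8% and 15.4%. Past the fold limit was MED12L in both Senexin B comparisons, beside 3.79% of genes without and 3.12% with R1881, and 0 members with SNX631, beside 4.77% and 4.12%.

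CDK19, a target of both compounds, was the 1 member higher in all 4 inhibitor comparisons, beside 5.08% of the 15681 genes tested in both experiments. With Senexin B it was at 337, 328 and 337 CPM without R1881 and 433, 459.7 and 451 CPM with R1881, against the vehicle and R1881 values above. With SNX631 it was between 304 and 319 CPM without and between 423 and 459 CPM with R1881. The groups compared did not overlap in any of the 4. The log2 fold changes were 0.15 ± 0.0321 and 0.11 ± 0.0318 for Senexin B without and with R1881 (± SE, edgeR FDR 0.000319 and 0.00660), and 0.19 ± 0.0270 and 0.33 ± 0.0258 for SNX631 (edgeR FDR 4.60e-07 and 2.48e-13). The Senexin B change with R1881 did not pass with totals only (0.076, adjusted p = 0.0698) or in 9 of 12 fits that each left out 1 library (adjusted p from 0.0133 to 0.0473).

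CDK8, the other target, was higher with Senexin B than with vehicle, at 63.8, 61.7 and 65.0 CPM against 51.8, 46.2 and 50.5 CPM (0.36 ± 0.0532, log2 ± SE, edgeR FDR 3.08e-06). SNX631 gave 0.15 ± 0.0527 with overlapping groups (edgeR FDR 0.0235), which passed when SNX631 replicate 4 was left out (adjusted p = 0.00818). With R1881, CDK8 passed with neither compound (0.016 ± 0.0807 and -0.047 ± 0.0707, edgeR FDR 0.908 and 0.633), and the sign of the first turned with totals only, to -0.020. The CDK19 to CDK8 ratio was 5.26 ± 0.0696 with Senexin B and 18.8 ± 1.57 with both agents (mean ± SD, n = 3). It was 6.24 ± 0.399 with SNX631 and 19.95 ± 1.45 with both (n = 4), the latter 1.30-fold higher than with R1881 alone (exact two-sided permutation p = 0.0286, adjusted p = 0.0762). The other inhibitor comparisons of the ratio gave adjusted p values of 0.133, 0.457 and 0.600 in the same exact permutation test. As stated above, no adjusted p of the ratio could fall under 0.05 with these group sizes.

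MED12L went in opposite directions with Senexin B in the absence and presence of R1881. Its vehicle libraries held 6.95, 5.36 and 5.09 CPM against 3.76, 3.73 and 3.43 CPM with Senexin B, and its R1881 libraries 13.7, 9.53 and 11.8 CPM against 19.8, 15.7 and 18.1 CPM with both agents. The groups did not overlap in either case. The log2 fold changes were -0.60 ± 0.169 and 0.62 ± 0.114 (± SE, edgeR FDR 0.00454 and 5.92e-05). The first did not pass when Senexin B replicate 1, 2 or 3, or vehicle replicate 1 was left out (adjusted p from 0.0133 to 0.0281). With SNX631 the changes were 0.064 ± 0.166 and 0.28 ± 0.128, with overlapping groups (edgeR FDR 0.803 and 0.0774).

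CCNC was lower with Senexin B in the presence of R1881, at 52.9, 54.5 and 52.8 CPM against 62.7, 59.8 and 62.3 CPM (-0.21 ± 0.0514, log2 ± SE, edgeR FDR 0.00191), though not when the R1881 and Senexin B library of replicate 3 was left out (adjusted p = 0.0110). Its other inhibitor changes were -0.15 ± 0.0488 with Senexin B, -0.13 ± 0.0426 with SNX631 and -0.073 ± 0.0416 with SNX631 and R1881 (edgeR FDR 0.0173, 0.0189 and 0.159). The first 2 of these passed with totals only (adjusted p = 0.00329 and 0.00409), and that with SNX631 also when SNX631 replicate 3 was left out (-0.16, adjusted p = 0.00489). With SNX631 and R1881, MED13L was at 60.1, 69.6, 60.6 and 55.7 CPM against 74.9, 80.6, 74.4 and 82.3 CPM with R1881 alone, with no overlap (-0.35 ± 0.0487, edgeR FDR 2.72e-07). MED12 and MED13 overlapped between these groups but passed (-0.22 ± 0.0592 and -0.14 ± 0.0413, edgeR FDR 0.00251 and 0.00737). MED12 did not pass with DESeq2 (adjusted p = 0.0344) or when R1881 replicate 2, 3 or 4, or the R1881 and SNX631 library of replicate 4 was left out (adjusted p from 0.0153 to 0.0215). MED13 did not pass with DESeq2 (adjusted p = 0.0120) or when R1881 replicate 2, 3 or 4, or the R1881 and SNX631 library of replicate 4, or vehicle replicate 2 was left out (adjusted p from 0.01 to 0.0630).

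In the other inhibitor comparisons MED12, MED13 and MED13L did not pass. SNX631 without R1881 gave -0.052 ± 0.0553 for MED12, -0.088 ± 0.0380 for MED13 and -0.13 ± 0.0463 for MED13L (log2 ± SE, edgeR FDR 0.505, 0.0683 and 0.0234). Senexin B without R1881 gave -0.088 ± 0.0423, -0.10 ± 0.0417 and -0.17 ± 0.0566 (edgeR FDR 0.106, 0.0635 and 0.0209), and with R1881 -0.13 ± 0.0481, -0.066 ± 0.0469 and -0.17 ± 0.0614 (edgeR FDR 0.0294, 0.300 and 0.0270). With totals only, MED13L passed in all 3 of these comparisons (adjusted p = 0.00631, 0.00544 and 0.00920) and MED12 with Senexin B and R1881 (adjusted p = 0.00759). When R1881 replicate 2 was left out, Senexin B with R1881 gave -0.28 for MED13L (adjusted p = 7.50e-05) and -0.19 for MED12 (adjusted p = 0.00229), and MED13L also passed without R1881 (-0.16, adjusted p = 0.00365). With SNX631 alone, MED13L passed when SNX631 replicate 3, or the R1881 and SNX631 library of replicate 2 was left out (adjusted p = 0.00638 and 0.00886).

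Of the 26 other members, the head subunit MED17 was higher with both inhibitors in the presence of R1881. It was at 35.5, 33.2 and 35.5 CPM with R1881 and Senexin B against 32.0, 28.8 and 27.9 CPM with R1881, and at 34.2 to 38.3 CPM with R1881 and SNX631 against 27.4 to 30.8 CPM. These groups did not overlap (0.24 ± 0.0640 and 0.28 ± 0.0544, log2 ± SE, edgeR FDR 0.00446 and 6.62e-05). The Senexin B change did not pass with DESeq2 (adjusted p = 0.0220), with totals only (adjusted p = 0.0158) or when R1881 replicate 2 or 3, or the R1881 and Senexin B library of replicate 1 or 3 was left out (adjusted p from 0.0233 to 0.0468). Without R1881, Senexin B gave 31.4, 32.4 and 31.9 CPM against 25.5, 23.9 and 25.0 CPM (0.36 ± 0.0600, edgeR FDR 1.73e-05). MED17 shares 2156 of its 16610 exon bases with AP001273.2 on the same strand.

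MED11, another head subunit, was lower with Senexin B, at 13.9, 13.4 and 12.6 CPM against 15.2, 18.6 and 17.7 CPM without R1881 and at 14.5, 12.2 and 13.3 CPM against 16.4, 18.4 and 17.3 CPM with it. The groups did not overlap (-0.39 ± 0.0848 and -0.38 ± 0.0942, log2 ± SE, edgeR FDR 0.000446 and 0.00194), and the second did not pass when R1881 replicate 2, or the R1881 and Senexin B library of replicate 2 was left out (adjusted p from 0.0104 to 0.0151). Of its exon bases, 36.9% are also exon of a gene on the other strand, CXCL16 (group means of 25.6 to 43.1 CPM) or AC091153.4. The middle subunit MED21 was lower with Senexin B and R1881 (-0.33 ± 0.0715, edgeR FDR 0.000525). With SNX631 and R1881 the head subunit MED8 was lower (-0.24 ± 0.0538, edgeR FDR 0.000294), as were the tail subunits MED16 (-0.13 ± 0.0365, edgeR FDR 0.00265) and MED23 (-0.15 ± 0.0461, edgeR FDR 0.00847). MED16 did not pass when the R1881 and SNX631 library of replicate 1 or 4 was left out (adjusted p from 0.0101 to 0.0174), and MED23, whose groups overlapped, did not with DESeq2 (adjusted p = 0.0166) or in 9 of 16 fits that each left out 1 library. MED24 was higher with SNX631 alone, at 109 to 115 CPM against 101 to 106 CPM (0.13 ± 0.0309, edgeR FDR 0.000693).

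The last comparison asked whether the androgen effect differed with inhibitor, by the interaction term. At 24 h, 1 member was higher and 0 lower, beside 1.08% and 1.02% of genes, and at 72 h again 1 and 0, beside 2.99% and 4.1%. In either direction 5 and 7 members had an unadjusted p under 0.05, beside 16.7% and 25.1% of genes, and DESeq2 gave 0 and 0 lower. At 24 h the member was MED12L, whose androgen effect was larger under Senexin B by 1.23 ± 0.203 (log2 ± SE, edgeR FDR 0.000113) or 2.34-fold, past the fold limit, beside 0.577% of genes. At 72 h 0 members were past that limit, beside 1.19%, and MED12L gave 0.21 ± 0.210 (edgeR FDR 0.592). At 72 h the member was CDK19, whose androgen effect was larger under SNX631 by 0.14 ± 0.0374 (edgeR FDR 0.00745). This did not pass in 10 of 16 fits that each left out 1 library (adjusted p from 0.0111 to 0.0266). For CDK8 the interactions were -0.34 ± 0.0966 and -0.20 ± 0.0882 (edgeR FDR 0.0360 and 0.151), and the first passed when the R1881 and Senexin B library of replicate 2 was left out (adjusted p = 0.00988). For MED13L that at 72 h was -0.21 ± 0.0672 (edgeR FDR 0.0296), which passed when the R1881 and SNX631 library of replicate 2 was left out (adjusted p = 0.00160).

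Of the 33 members, 11 passed in none of the 8 comparisons and 2 interactions, beside 20.1% of the 15681 genes tested in both experiments, and 0 of the 11 belong to the kinase module. They are the head genes MED6, MED18, MED20 and MED22, the middle genes MED1, MED4, MED7, MED19 and MED26, and the tail genes MED25 and MED27. Over the 8 comparisons their log2 fold changes ran from -0.27 (MED18) to 0.18 (MED26), and those of MED4 stayed between -0.068 and 0.038.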

How the data were processed

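Total RNA of 28 LNCaP libraries was sequenced after preparation with a directional kit. The authors deposited 1 table of estimated counts per gene, not scaled to depth, in which 16.9% of values above 0 are fractions. The processing notes of the submitters name cutadapt 2.8, STAR 2.7.2b, featureCounts of Subread 2.0.3 and the builds GRCh38.p13 and GRCm39, and the strand setting and annotation release are not given in the sources used here. Of 61817 rows, 2 that are no human genes held 0 counts and were left out. Groups and doses are those of the labels, and the text of the study gives another dose of Senexin B.

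Counts were rounded to whole numbers. Each experiment was fitted alone by the quasi-likelihood method of edgeR 4.0.16 (R 4.3.3) after TMM scaling and removal of low genes by filterByExpr (min.count 10, min.total.count 15). A gene passed at an FDR under 0.01, and was past the fold limit at a fold change over 1.5 as well, which are the limits used in the study. CPM carry the TMM scaling of their experiment, so levels were compared only within one. Gene positions and exon lengths are from GENCODE 29. The log2 ratio of CDK19 to CDK8 counts was compared by exact permutation in scipy 1.17.1. Spreads between libraries are given as SD, and SE are those of the fit.

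The members, modules and other lists were chosen with earlier results of these data known. MED27 to MED30 were counted in the tail, and other assignments place them in the head. The rule for naming took the kinase module in every comparison, members past the fold limit or in an interaction, and otherwise the 3 highest and 3 lowest that passed. The 11 members that passed in no comparison were named after their values were seen, as were further values of genes the rule had named in another comparison. Alternatives were DESeq2 1.42.0 (its test and its size factors), scaling by library totals only, no filter or a mean of 1 CPM, 1 fit of all libraries or of only the groups compared, a replicate block, an FDR of 0.05 and leaving out each library. Some items are not reported here. The code was tested on simulated data. Python 3.11.15 and matplotlib 3.10.9 made the figures.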

Additional observations from a re-analysis of the deposited data

Results flagged for a closer look

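In 9 of the 88 groups of 4 libraries examined, all of named members, 1 library stood apart by Dixon's test. For this test chance gives about 1 in 20. Only the 72 h groups hold 4 libraries, so the 24 h groups of 3 were not examined for libraries that stand apart. CDK8 replicate 1 of the R1881 and SNX631 group was the lowest at 20.2 CPM (others 22.7 to 23.0 CPM). MED12 replicate 1 of the R1881 group was the lowest at 67.5 CPM (others 83.9 to 85.7 CPM). MED13 replicate 4 of the vehicle group was the highest at 187 CPM (others 173 to 174 CPM). MED17 replicate 2 of the R1881 group was the lowest at 27.4 CPM (others 30.4 to 30.8 CPM). MED10 replicate 2 of the R1881 group was the highest at 26.1 CPM (others 21.8 to 22.1 CPM). MED10 replicate 4 of the R1881 and SNX631 group was the lowest at 18.3 CPM (others 20.3 to 20.6 CPM). MED31 replicate 3 of the R1881 group was the highest at 13.8 CPM (others 11.0 to 11.1 CPM). MED15 replicate 2 of the SNX631 group was the highest at 48.7 CPM (others 46.3 to 46.5 CPM). MED29 replicate 4 of the R1881 group was the lowest at 96.3 CPM (others 104.8 to 105.4 CPM).

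In 3 cases an effect differed between groups by a test of the difference itself, each with edgeR's quasi-likelihood test. In each test this was the 1 member of 33 that passed. The androgen effect on MED16 was higher at 72 h than at 24 h by 0.21 ± 0.0549 (log2 ± SE, FDR 0.00627). Of all genes, 7.54% passed that test. MED16 did not pass with totals only or in 10 of 28 fits that each left out 1 library. The androgen effect on MED12L was larger under Senexin B by 1.23 ± 0.203 (FDR 0.000113), beside 2.09% of genes that passed. The androgen effect on CDK19 was larger under SNX631 by 0.14 ± 0.0374 (FDR 0.00745), beside 7.09% of genes. CDK19 did not pass in 10 of 16 fits that each left out 1 library.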

How the results depend on the processing

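Counts of members kept within 1.5 times of the reported ones with DESeq2's size factors and with a replicate block. An FDR of 0.05 gave 7 higher for R1881 under Senexin B and 10 under SNX631, 6 and 7 lower for Senexin B without and with R1881, 4 higher and 4 lower for SNX631 without and 4 higher and 10 lower with R1881, and 1 and 2 lower in the interactions at 24 h and 72 h. The DESeq2 test gave 5 higher for R1881 at 24 h, 3 higher under SNX631 and 3 lower for SNX631 with R1881. Scaling by totals gave 4 higher and 9 lower for R1881 at 24 h, 4 and 10 at 72 h, 3 higher under SNX631, 0 higher at 72 h against 24 h (MED16 did not pass), 6 lower for Senexin B without and 1 higher and 6 lower with R1881, and 4 and 10 lower for SNX631 without and with R1881. It reversed CCNC with R1881 at 72 h (-0.037) and CDK8 for Senexin B with R1881 (-0.020), neither of which had passed, and MED24 with R1881 under SNX631 (-0.017), which had. With no filter, 1 was lower in the 72 h interaction, 5 for Senexin B with R1881 and 1 for SNX631 alone. A fit of only the groups compared gave 1 higher for Senexin B with R1881 and 1 lower for SNX631 alone, and 1 fit of all libraries and the 1 CPM filter 1 lower each for SNX631 alone. With MED27 to MED30 in the head, 3 head and 1 tail genes passed with R1881 at 24 h and 4 and 2 at 72 h. The cause of these changes was not tested.

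Leaving out 1 library at a time, the counts ran, for R1881, from 5 to 8 higher at 24 h and 3 to 7 higher under SNX631. They ran from 1 to 3 lower for Senexin B without R1881, 1 to 3 higher and 2 to 5 lower with it, 0 to 2 and 2 to 7 lower for SNX631 without and with R1881, 0 to 1 lower in the 24 h interaction, 0 to 1 higher and 0 to 2 lower in the 72 h one, and 0 to 1 higher and 0 to 1 lower at 72 h against 24 h. Single changes that had not passed and turned sign ran as follows on the log2 scale. CDK8 ran from -0.062 to 0.085 for Senexin B with R1881 and MED12L from -0.021 to 0.21 for SNX631 alone. At 72 h against 24 h MED12 ran from -0.0075 to 0.11 and MED13 from -0.088 to 0.023. In the interactions MED13 ran from -0.048 to 0.063 at 24 h and -0.074 to 0.0029 at 72 h, and MED13L from -0.12 to 0.052 at 24 h. MED13L ran from -0.089 to 0.085 with R1881 at 24 h and -0.075 to 0.015 under Senexin B. The comparisons of the CDK19 to CDK8 ratio kept their direction in all 56 fits of this kind, in which fewer libraries raise the smallest p that can be reached.

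Libraries with the same replicate number did not deviate together over all genes tested (correlations of -0.0677 to 0.0730). Counting noise lowers such correlations, so they do not decide whether the numbers mark pairs. With the replicate block, the MED13L change with Senexin B alone passed (-0.17, adjusted p = 0.00754) and that of MED24 with R1881 under SNX631 did not (0.091, adjusted p = 0.0101), and no other call of a member that had passed changed. Depth limits MED12L and MED30 most, with 37 and 26 counts in their lowest libraries. Groups of 3 or 4 libraries limit the ratio test, and reads of genes that overlap on opposite strands cannot be assigned if the counting ignored strand.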
